A study of Mus musculus with 9 samples.

Results

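Hemoglobin, the oxygen carrier of red blood cells, was followed here through the mouse genes of its adult alpha chains (Hba-a1 and Hba-a2), its adult beta chains (Hbb-bs and Hbb-bt) and Alas2, the erythroid enzyme that starts heme synthesis. These 5 genes were taken by symbol from the 53465 gene identifiers counted in 9 RNA-seq libraries of mouse heart. They were chosen by their CPM in the 3 groups, which was already known, so their values are given as a description, without a test. The tissue, described as the infarct border zone, was heart of NOD-SCID mice, an immunodeficient strain that lacks working B and T cells. Sham hearts had no ligation, so the term cannot mean infarcted tissue there. Each group had 3 libraries: hearts after sham surgery, hearts after ligation of a coronary artery, and hearts that had the same ligation and received FOXO3-GE-MPCs, named only by that abbreviation in the labels and called the cell group below. All groups shared the strain, and the ligation and cell groups shared the ligation. No arm had cells without ligation, and a group given control cells was not analysed here. The labels used here give no age, sex or time after surgery. For replicates 2 and 3 of the cell group the source field names FOXO members with other numbers, while title and treatment name FOXO3 throughout; the title was followed.

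Nothing in the labels says whether the libraries of a group came from separate animals, so p-values measure only the spread between these libraries. Gene counts per library ran from 4549268 (ligation replicate 1) to 7515052 (ligation replicate 3). Mitochondrial transcripts took 19.1 to 19.9% of counts in sham, 12.5 to 13.9% after ligation and 14.28 to 14.34% in the cell group. The column headers of sham replicates 1 and 2 share a name stem, as do those of ligation replicates 2 and 3. No replicate pair matched within sampling noise (chi-square per gene 1.98 to 3.96), and all 9 libraries were kept. The heart label was borne out by cardiomyocyte markers (Myh6, Tnnt2, Tnni3, Actc1, Ryr2 and Pln), which summed to 29942 to 38521 CPM (counts scaled to library size) in each library. B and T cell markers summed to at most 7 counts in any library, with Ms4a1 at 0 throughout.

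A hemoglobin molecule pairs alpha with beta globin chains, each holding a heme group whose iron binds oxygen. Alas2 joins glycine and succinyl-CoA in the mitochondrion, the rate-limiting step of heme synthesis in red cell precursors, while Alas1 does this in other tissues. Mature mouse red cells have no nucleus, but their youngest form, the reticulocyte, still carries globin and Alas2 mRNA, so blood inside a piece of tissue adds these transcripts to its RNA. In such bulk tissue, fewer cells of a type and less RNA per cell cannot be told apart.

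The globin copies are close to identical, and this bears on every value given for a single copy. Hba-a1 lies at chr11:32283511-32284465 and Hba-a2 at chr11:32296489-32297298, both on the plus strand of GRCm38 (mm10). Hbb-bs lies at chr7:103826534-103828096 and Hbb-bt at chr7:103812524-103813996, both on the minus strand, and Alas2 at chrX:150547375-150570638 on the plus strand. The coding sequences of Hba-a1 and Hba-a2, of 426 bases each, differ at 1 base, C381T (Hba-a1 base first, counted from the A of the start codon). Those of Hbb-bs and Hbb-bt, of 441 bases each, also differ at 1 base, C417T. The stretches around these sites, which are all that tells the coding parts of each pair apart, are shown 5′ to 3′ along the gene with the differing base in capitals. They cover coding bases 366 to 396 of the alpha pair and 402 to 432 of the beta pair.
Hba-a1: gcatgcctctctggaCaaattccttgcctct
Hba-a2: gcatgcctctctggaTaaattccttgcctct
Hbb-bs: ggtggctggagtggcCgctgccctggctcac
Hbb-bt: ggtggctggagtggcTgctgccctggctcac

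Over whole exons the overlap was largest for Hba-a2. Of its 635 stretches of 31 bases, 92.6% also occur in another annotated gene, and 47 do not. The share was 75.5% for Hba-a1, 54.4% for Hbb-bs, 59.4% for Hbb-bt and 13.1% for Alas2. Most of the sharing is within the alpha pair and within the beta pair, so a sum over a pair does not depend on how reads were divided between its copies, although whether reads that match both were counted is not given in the sources used here. Alas2 exons overlap those of Apex2 and Mir3620 on the opposite strand over 372 bases, and whether the counting used strand is not given in the sources used here.

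The promoters are shown as a description of the genes, and their part in the group levels was not tested. The windows end where annotated exons begin and come from RefSeq on GRCm38.p6, all 5 members being matched. Each is written 5′ to 3′ on the gene's strand, with positions counted from the RefSeq start, and capitals mark GATAA (the core bound by GATA factors), CACCC (the element bound by Klf1-type factors), CCAAT and ATATAA, searched on both strands. The Hba-a2 window lies at chr11:32296242-32296488 and its 247 bases also occur unbroken in the 250 bases before the RefSeq start of Hba-a1, which are not printed since most of them lie in an annotated Hba-a1 exon. The Hbb-bs windows lie at chr7:103828097-103828178 and chr7:103827929-103828011, the Hbb-bt window at chr7:103813997-103814173 and the Alas2 window at chrX:150547167-150547374. In Hbb-bt the last bases in capitals open a CCAAT that runs past the window.
Hba-a2, -250 to -4: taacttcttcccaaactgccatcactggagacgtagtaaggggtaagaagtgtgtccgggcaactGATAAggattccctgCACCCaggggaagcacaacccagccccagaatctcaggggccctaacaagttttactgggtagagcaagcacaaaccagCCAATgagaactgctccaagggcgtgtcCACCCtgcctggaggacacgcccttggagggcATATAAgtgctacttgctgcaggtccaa
Hbb-bs, -250 to -169: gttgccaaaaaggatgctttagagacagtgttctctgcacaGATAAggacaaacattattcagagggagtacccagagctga
Hbb-bs, -83 to -1: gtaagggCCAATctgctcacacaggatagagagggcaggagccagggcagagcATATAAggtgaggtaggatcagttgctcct
Hbb-bt, -250 to -74: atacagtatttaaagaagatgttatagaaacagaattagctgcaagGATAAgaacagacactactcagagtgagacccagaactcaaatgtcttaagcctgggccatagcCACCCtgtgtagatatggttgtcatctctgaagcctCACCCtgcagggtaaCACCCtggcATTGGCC
Alas2, -250 to -43: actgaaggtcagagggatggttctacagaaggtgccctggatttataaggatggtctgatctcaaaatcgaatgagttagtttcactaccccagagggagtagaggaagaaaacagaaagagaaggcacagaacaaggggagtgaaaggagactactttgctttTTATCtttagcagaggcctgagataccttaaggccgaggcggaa

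All 4 motifs occur in the 250 bases before each of the 4 globin genes, a combination found in 0.488% (132) of the 27025 promoters of that length. The motifs were picked by hand and the alpha promoters are nearly the same sequence, so nothing is read from this share. Singly, GATAA occurs in 23.0% of them, CACCC in 51.3%, CCAAT in 34.5% and ATATAA in 9.51%. The 250 bases before Alas2 hold GATAA, read on the opposite strand at -86, and CACCC, a pair found in 10.03% of promoters (2711). Some matches, among them CACCC of Hbb-bs and Alas2, lie in bases not printed. The beta promoters share no run longer than 14 bases with each other, against 247 for the alpha promoters. A match is a string of letters and not a measured binding site.

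Adult globin transcripts were most abundant after ligation and least abundant in the cell group. Summed over the 4 genes, they stood at 860.2, 895.0 and 908.3 CPM in sham, scaled by trimmed mean of M-values (TMM). After ligation they stood at 1474, 1522 and 1575 CPM, and in the cell group at 650.3, 662.9 and 671.7 CPM. No library of any group reached into the range of another. The ligation mean of 1524 ± 50.4 CPM (SD, n = 3) was 1.72-fold the sham mean of 888 ± 24.9 (SD, n = 3), a log2 difference of 0.78 (SE 0.0361). The cell group, at 662 ± 10.7 CPM (SD, n = 3), was 2.30-fold below ligation, a log2 difference of -1.20 (SE 0.0307). It was also 1.34-fold below sham, a log2 difference of -0.42 (SE 0.0270). Scaled by library totals alone, which put the median of all genes at 0.20 for ligation against sham and 0.15 for the cell group against sham on the log2 scale, these differences from sham were 0.97 and -0.27. The comparisons share libraries: ligation enters both the first and the second, and sham both the first and the third.

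**Figure D1:**
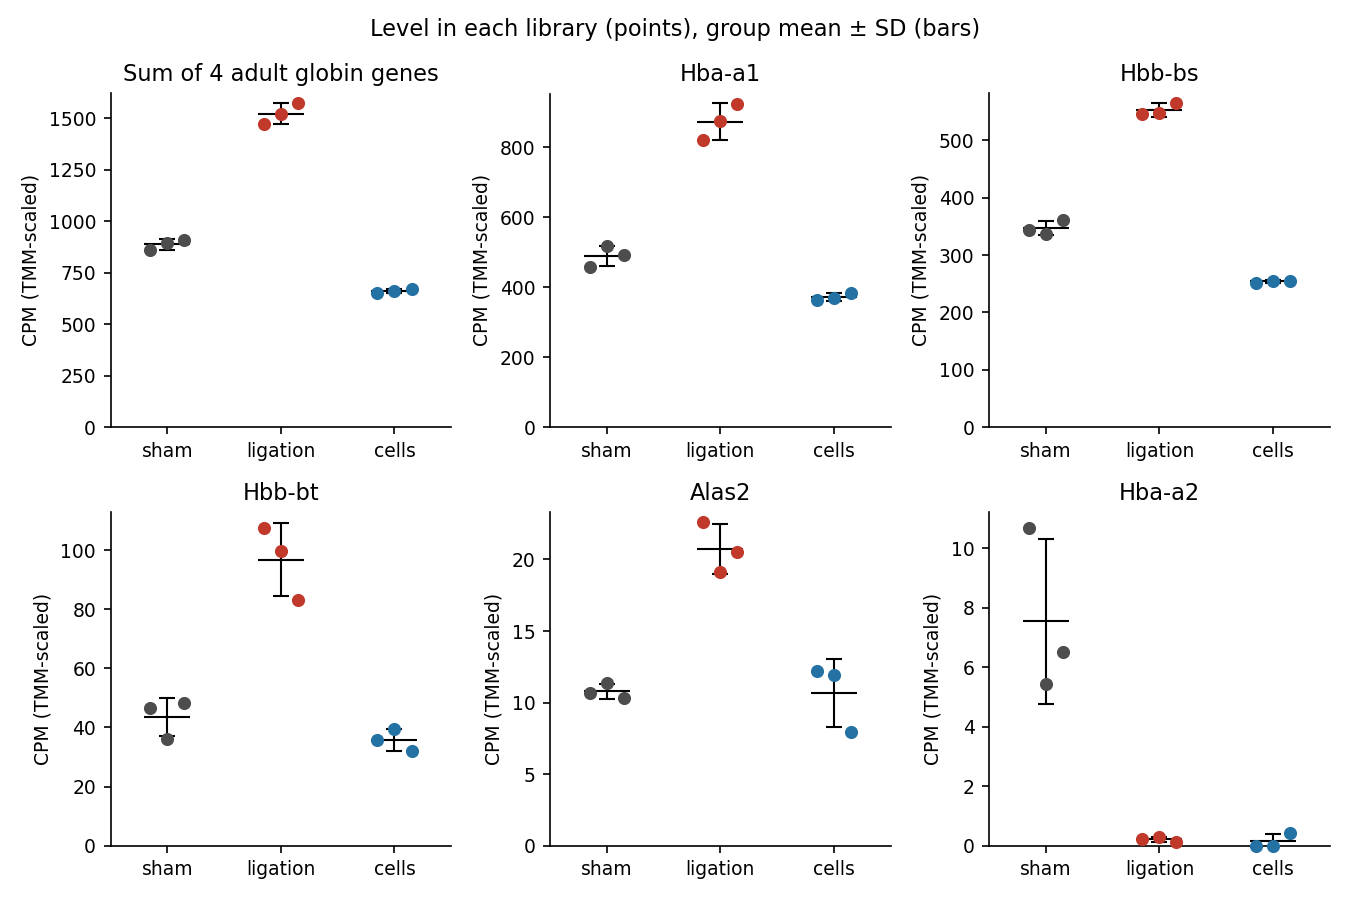
TMM-scaled CPM (vertical axes, linear, starting at 0) of the summed adult globins and of each of the 5 genes in every library, by group, with points for libraries and lines for group means ± SD. The summed globins sit at 1474 to 1575 CPM after ligation, above the 860.2 to 908.3 of sham and the 650.3 to 671.7 of the cell group, while Hba-a2 is near 0 in all 6 libraries from ligated hearts.

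Of the 5 genes, 4 had ligation libraries wholly above the sham libraries, where 25.0% of the 13825 genes tested did so, and 1 (Hba-a2) lay wholly below, where 22.6% did. In the cell group 4 lay wholly below ligation, against 14.0% of genes, and 3 lay wholly below sham, against 24.5%. Ligation stood above both other groups without overlap for 4 of the 5 and for 6.59% of all genes. These levels chose the genes, so nothing is read from the shares.

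Hba-a1, the copy that took nearly all alpha counts, stood at 458, 517 and 493 CPM in sham, 821, 875 and 925 after ligation and 363, 368 and 384 in the cell group. The 3 ranges were separate. Its log2 difference was 0.84 (SE 0.0708) for ligation against sham, -1.23 (SE 0.0556) for the cell group against ligation and -0.40 (SE 0.0559) for the cell group against sham.

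Hba-a2, the other alpha copy, was highest in sham. It had 60, 33 and 41 counts in the sham libraries, 1, 2 and 1 after ligation and 0, 0 and 3 in the cell group. Every sham library was above all 6 ligated ones, and all 6 held 3 counts or fewer, the limit that a count of 0 allows (0.375 to 0.639 CPM by library). Relative to TMM-scaled library size, the sham group was 36.5 times the ligation group (134 against 4 counts, exact 95% interval 13.9 to 136). It was 52.6 times the cell group (134 against 3 counts, interval 17.6 to 258), all 3 counts being of cell replicate 3, without which the group has 0 and no ratio can be formed. No fold is given between the ligated groups, both being at the limit, and the intervals cover counting error only. Hba-a2 passed the filter on low counts through the sham libraries alone. It therefore had to differ, and nothing is read from these ratios or their intervals.

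Within a library, the division between the 2 alpha copies does not depend on scaling. Hba-a2 made 2.28, 1.04 and 1.30% of alpha counts in the sham libraries (Wilson 95% intervals 1.77 to 2.92, 0.742 to 1.46 and 0.962 to 1.76). After ligation it made 0.0260, 0.0331 and 0.0135%. In the cell group replicates 1 and 2 had none, which allows shares of up to 0.117 and 0.113%, and replicate 3 had 0.112%. Sham replicate 1 stands above the other sham libraries. The gap between sham and the ligated libraries is a description only, since Hba-a2 passed the filter through sham alone. Since Hba-a2 holds so little of the alpha total, the summed alpha level (497, 874 and 372 CPM in sham, ligation and the cell group) had nearly the pattern of Hba-a1. Hba-a2 has only 47 stretches of 31 bases of its own, and how reads matching both copies were counted is not given. Its copy-level value is therefore uncertain.

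**Figure D2:**
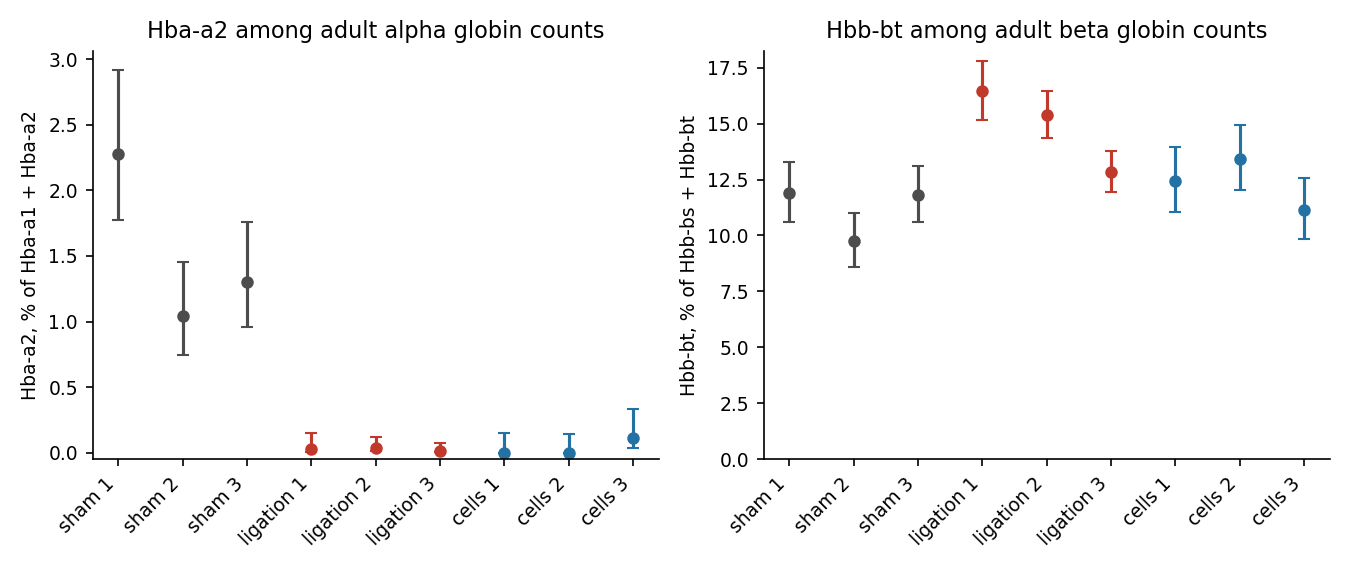
Share of each library's alpha globin counts given to Hba-a2 and of its beta globin counts given to Hbb-bt (vertical axes, percent, starting at 0), with Wilson 95% intervals for counting error. Hba-a2 takes 1.04 to 2.28% in sham and stands at 0 to 0.112% (0 to 3 counts) in the libraries from ligated hearts, while Hbb-bt takes 9.73 to 16.4% with no comparable gap.

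Hbb-bs, the more abundant beta copy, stood at 345, 336 and 361 CPM in sham, 546, 547 and 566 after ligation and 252, 255 and 255 in the cell group. Its ranges were separate, and within the cell group it varied least of the 5 genes. The log2 differences were 0.67 (SE 0.0343), -1.12 (SE 0.0183) and -0.45 (SE 0.0305), for ligation against sham, the cell group against ligation and the cell group against sham.

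Hbb-bt, the less abundant beta copy, stood at 46.5, 36.2 and 48.3 CPM in sham, 107, 99.6 and 83.3 after ligation and 35.7, 39.5 and 32.0 in the cell group. Ligation was above both other groups, whose ranges overlapped. In the same order as for Hbb-bs the log2 differences were 1.15 (SE 0.163), -1.44 (SE 0.138) and -0.29 (SE 0.152). Hbb-bt took 11.9, 9.73 and 11.8% of beta counts in sham, 16.4, 15.4 and 12.8% after ligation and 12.4, 13.4 and 11.1% in the cell group. The ligation and cell group shares overlapped, and ligation lay above sham. Beta genes took 41.6 to 45.5% of adult globin counts in sham, 41.2 to 44.3% after ligation and 42.8 to 44.4% in the cell group. The group ranges overlapped, while single libraries differed beyond counting error, as sham replicate 1 (Wilson 95% interval 44.1 to 46.9) did from sham replicate 2 (40.3 to 42.9).

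Alas2 stood at 10.7, 11.4 and 10.3 CPM in sham, 22.6, 19.1 and 20.5 after ligation and 12.2, 11.9 and 7.92 in the cell group. Ligation was above both other groups and the ranges of those 2 overlapped. The log2 difference was 0.94 (SE 0.0816) for ligation against sham and -0.96 (SE 0.200) for the cell group against ligation. Between the cell group and sham it was -0.01 (SE 0.191), and its sign turned with library totals alone (0.14), without sham replicate 2 (0.02) and without cell replicate 3 (0.16). Per 1000 adult globin counts there were 11.4 to 12.7 Alas2 counts in sham, 12.5 to 15.3 after ligation and 11.8 to 18.8 in the cell group, and these ranges overlapped.

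Per kilobase of exon, the order in sham was Hba-a1 (603 CPM per kilobase), Hbb-bs (452), Hbb-bt (62.1), Hba-a2 (11.3) and Alas2 (4.49). Ligation and the cell group kept this order apart from Hba-a2, which was at 0.314 and 0.216 CPM per kilobase, below Alas2 at 8.63 and 4.45. No sham library of one gene reached the range of the next. How reads matching both copies were counted is not given, so this order holds for whole exon length only.

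Summed markers of other cell types also differed between the groups, and of the lists given here the leukocyte list alone had the order of the globins. The leukocyte markers Ptprc, Cd52, Laptm5 and Coro1a summed to 73.3 to 80.2 CPM in sham, 127 to 133 after ligation and 47.1 to 48.3 in the cell group. All 4 fell in the cell group against ligation and against sham, and 2 rose after ligation, by the edgeR test given below with the pathway genes, at an adjusted p under 0.05. Beside these and the marker counts that follow, 20.1% of all genes rose and 18.0% fell after ligation, 4.19% rose and 5.69% fell in the cell group against ligation, and 40.9% passed in either direction against sham. Neutrophil markers, which include the calprotectin genes S100a8 and S100a9, were in another order: 37.9 to 45.2, 14.5 to 21.0 and 5.76 to 6.80 CPM. Of these, 4 were tested: 2 fell after ligation and 3 fell in the cell group against ligation. Platelet markers summed to 36.8 to 38.2, 25.3 to 30.9 and 14.5 to 17.2 CPM, but Pf4, which fell, was the only 1 of 3 tested that passed. The others, Ppbp and Itga2b, differed by 0.51 and 0.69 after ligation and by -0.42 and -0.23 in the cell group against ligation, none of which passed. Cardiomyocyte markers summed to 36722 to 38521 CPM in sham, 30741 to 31733 after ligation and 29942 to 30517 in the cell group, with 4 of 6 lower and 1 higher after ligation. Endothelial markers summed to 1868 to 1973 CPM in sham, 1242 to 1310 after ligation and 1369 to 1409 in the cell group. The erythroblast list, at 128 to 141, 138 to 154 and 161 to 176 CPM, was nearly all Tfrc, a receptor that many cells use; its defining genes Gata1 and Klf1 had at most 3 and 4 counts in any library and 0 in sham. The part of these cell types, of the mitochondrial share and of depth in the globin levels was not tested.

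**Figure D3:**
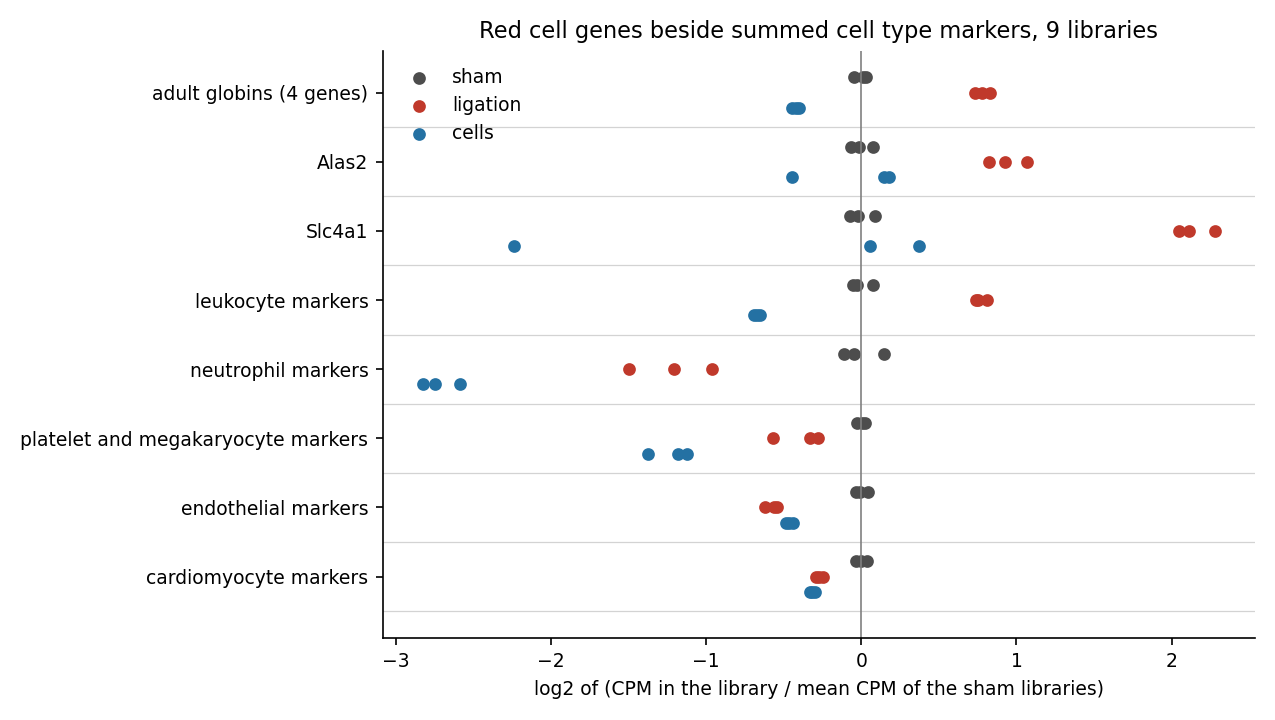
Log2 of each library's CPM relative to the sham mean (horizontal axis) for the summed adult globins, Alas2, Slc4a1 and the summed marker lists, with 1 point per library and colour for group. Globins and leukocyte markers lie above 0 after ligation and below 0 in the cell group, while the summed neutrophil and platelet markers, the latter mostly Pf4, lie below 0 in both ligated groups.

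Other genes of the pathway were taken as 4 lists of 93 symbols in all, of which 66 were tested. After ligation 16 rose and 23 fell against sham, where 38.2% of all genes passed (20.1% higher, 18.0% lower). Between the cell group and ligation 5 rose and 7 fell (9.87% of all genes passed, 4.19% higher and 5.69% lower), and between the cell group and sham 16 rose and 24 fell (40.9%). Genes were called at an adjusted p under 0.05 in edgeR (quasi-likelihood, adjusted by Benjamini-Hochberg over all 13825 genes). With library totals alone the splits were 30 and 11, 4 and 10, and 24 and 14. Over all genes the split also shifted towards higher, after ligation from 2783 higher and 2494 lower to 4966 and 1346. For the cell group against sham it went from 2899 and 2762 to 4612 and 1698. The median log2 differences of the 66 genes were 0.05, -0.05 and -0.16, against 0.01, 0.00 and -0.01 over all genes.

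Of the other globins, the embryonic genes Hba-x and Hbb-bh1 and the gene Hbb-bh2 had 0 counts in every library, Hbq1a, Hbq1b and Hbb-y had at most 2 and the neuroglobin gene Ngb at most 5. Myoglobin (Mb), the oxygen store of heart muscle, fell by 0.24 (SE 0.0258) on the log2 scale after ligation, from 13476 to 11451 CPM (edgeR adjusted p = 3.28e-07), and differed by 0.04 (SE 0.0258) between the cell group and ligation (adjusted p = 0.419). Its fall did not pass with library totals alone (-0.05). Cytoglobin (Cygb), found in fibroblasts, rose by 0.65 (SE 0.0538, edgeR adjusted p = 5.52e-09) after ligation, and its difference of -0.16 (SE 0.0525) in the cell group against ligation did not pass (adjusted p = 0.066). No gene of this list passed between the cell group and ligation by edgeR or by DESeq2, while 1 had an unadjusted p under 0.05.

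Of 14 heme synthesis genes tested, 2 rose, 7 fell and 5 did not pass after ligation (median -0.23), where 38.2% of all genes passed. With library totals alone 4 rose and 3 fell, and all genes also shifted towards higher. Alas1, the form of the enzyme used outside red cells, fell by 0.30 (SE 0.0511, edgeR adjusted p = 7.38e-05), a call not made with library totals alone. Of the later enzymes, Uros fell by 0.50 (SE 0.137) and Urod by 0.44 (SE 0.0767), of which Uros did not pass with library totals alone. Fech, which puts iron into the ring, rose by 0.37 (SE 0.0678, edgeR adjusted p = 0.000182), and Abcb10, a mitochondrial transporter needed for heme synthesis, rose by 0.51 (SE 0.114, adjusted p = 0.00126). Slc25a37, the mitochondrial iron importer of red cell precursors, differed by -0.23 (SE 0.117, edgeR adjusted p = 0.125), and passed without ligation replicate 1 (adjusted p = 0.0176). Ppox differed by -0.27 (SE 0.156, adjusted p = 0.179 by edgeR), and passed without ligation replicate 3 (adjusted p = 0.0114).

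Between the cell group and ligation, where 9.87% of all genes passed, none of the 14 passed by edgeR or by DESeq2, and 4 had an unadjusted p under 0.05. Alas1 differed by -0.01 (SE 0.0512, edgeR adjusted p = 0.958), and its sign turned without ligation replicate 2 (0.02) and without cell replicate 3 (0.01). Over all libraries Alas2 was at -0.96 in this comparison. Slc25a37 differed by -0.37 (SE 0.121, edgeR adjusted p = 0.057) and passed without ligation replicate 3 (adjusted p = 0.0065). Against sham, where 40.9% of all genes passed, 4 rose and 8 fell in the cell group (5 and 5 with library totals alone). Among them Fech rose by 0.46 (SE 0.0671), Abcb10 rose by 0.61 (SE 0.112), Slc25a37 fell by 0.61 (SE 0.119) and Ppox fell by 0.66 (SE 0.160).

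Red cell membrane and erythroid genes did not move as one. Of 25 tested, 5 rose and 10 fell after ligation (11 and 6 with library totals alone), 4 rose and 1 fell in the cell group against ligation, and 4 rose and 9 fell against sham (6 and 5). Slc4a1 was among the 5 that rose and was the 1 that fell, calls that are not read here for the reason given below. Over all genes 38.2, 9.87 and 40.9% passed in these comparisons. Ahsp, the alpha chain chaperone, was not analysed here. Slc4a1, the band 3 anion exchanger of the red cell membrane, had 4, 4 and 4 counts in sham, 13, 20 and 26 after ligation and 1, 5 and 6 in the cell group. Its ligation libraries were above all others, and with so few counts elsewhere it passed the filter on low counts through the ligation libraries alone. Nothing is read from its fitted fold or its calls, since a gene that passes through its high group alone had to differ. Per 1000 globin counts there were 0.699 to 0.828 Slc4a1 counts in sham, 1.88 to 2.06 after ligation and 0.218 to 1.29 in the cell group.

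Many genes of this list are also expressed in heart or vessel cells. Ank1, an ankyrin that ties the membrane to its skeleton, fell by 0.45 (SE 0.0525) after ligation and rose by 0.29 (SE 0.0524) in the cell group against ligation (edgeR adjusted p = 0.000899). Aqp1, a water channel also of endothelium, fell by 0.47 (SE 0.0444) and rose by 0.27 (SE 0.0443, edgeR adjusted p = 0.00028). In these comparisons both had the sign opposite to the globins, while against sham both were lower in the cell group, as the globins were (Ank1 by -0.17, SE 0.0519, edgeR adjusted p = 0.0134, and Aqp1 by -0.20, SE 0.0441, adjusted p = 0.00111), calls not made with library totals alone. Sptb, a spectrin of the membrane skeleton, rose by 0.86 (SE 0.0795) after ligation. Tmod1, a tropomodulin also of heart muscle, rose by 0.67 (SE 0.0631), while its rise of 0.20 in the cell group against ligation was lost by DESeq2, with library totals alone and when any of the 6 libraries was left out (edgeR adjusted p 0.0623 to 0.156). Tal1, a blood and endothelial transcription factor, fell by 0.52 (SE 0.129), and Adgrg1, an adhesion receptor, by 0.41 (SE 0.0720) after ligation. Bpgm, which makes the phosphoglycerate that lowers the oxygen affinity of hemoglobin, rose by 0.38 after ligation (SE 0.122, edgeR adjusted p = 0.0176), a call lost without sham replicate 1 or 2 or ligation replicate 2 or 3 (adjusted p up to 0.0998). Tfrc, the transferrin receptor, differed by 0.07 (SE 0.0654) after ligation and rose by 0.26 in the cell group against ligation (SE 0.0642, edgeR adjusted p = 0.0123), a call lost without ligation replicate 2 or 3 or cell replicate 1 or 3 (adjusted p up to 0.0870).

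The last list held genes that clear hemoglobin and heme or handle iron. Of 25 tested, 8 rose and 5 fell after ligation (14 and 2 with library totals alone), 1 rose and 6 fell in the cell group against ligation, and 7 rose and 6 fell against sham (12 and 4), beside the same shares of all genes. The shift towards higher with library totals is again one that all genes showed. Haptoglobin (Hp), which binds free hemoglobin, rose from 9.21 ± 2.58 CPM in sham to 65.0 ± 4.23 after ligation and was 34.0 ± 1.65 in the cell group (SD, n = 3 each). This was a rise of 2.82 (SE 0.126, edgeR adjusted p = 3.84e-13) and then a fall of 0.94 against ligation (SE 0.10004, adjusted p = 1.57e-06), with the cell group still 1.88 above sham (SE 0.134, adjusted p = 4.9e-10). Hmox1, the oxygenase that opens the heme ring, stood at 14.95, 10.4 and 13.7 CPM in sham, 18.5, 21.0 and 19.8 after ligation and 10.2, 10.1 and 12.0 in the cell group. Like the globins it was highest after ligation, with a rise of 0.61 (SE 0.145, edgeR adjusted p = 0.00204) and a fall of 0.88 in the cell group (SE 0.145, adjusted p = 0.000301). Against sham it differed by -0.27 (SE 0.155, edgeR adjusted p = 0.178) and passed without sham replicate 2 (adjusted p = 0.0465).

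Cd163, the macrophage receptor that takes up hemoglobin bound to haptoglobin, went from 36.9 ± 1.52 CPM in sham to 27.2 ± 1.22 after ligation and 9.79 ± 2.15 in the cell group (SD, n = 3 each). It fell by 0.44 (SE 0.112, edgeR adjusted p = 0.00354) and, in the cell group against ligation, fell by 1.47 (SE 0.132, adjusted p = 1.35e-07); the first fall did not pass with library totals alone. Lrp1, a receptor for heme bound to hemopexin, rose by 0.70 (SE 0.0561) after ligation and differed by -0.17 in the cell group against ligation (SE 0.0551, edgeR adjusted p = 0.0591), passing without ligation replicate 1 (adjusted p = 0.0114) and by DESeq2. Hemopexin itself (Hpx) had at most 10 counts in any library and was not tested. Slc40a1, which exports iron from cells, fell by 1.30 after ligation (SE 0.253, edgeR adjusted p = 0.000332), and Fth1, a ferritin chain that stores iron, fell by 0.46 (SE 0.0348, adjusted p = 1.2e-09). Hamp, the iron hormone hepcidin, stood at 2.63 CPM in sham, 2.61 after ligation and 9.64 in the cell group. It rose by 1.95 in the cell group against ligation (SE 0.282, edgeR adjusted p = 7.38e-05), and its ligation difference of -0.07 (SE 0.349) turned sign with library totals alone (0.11).

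**Figure D4:**
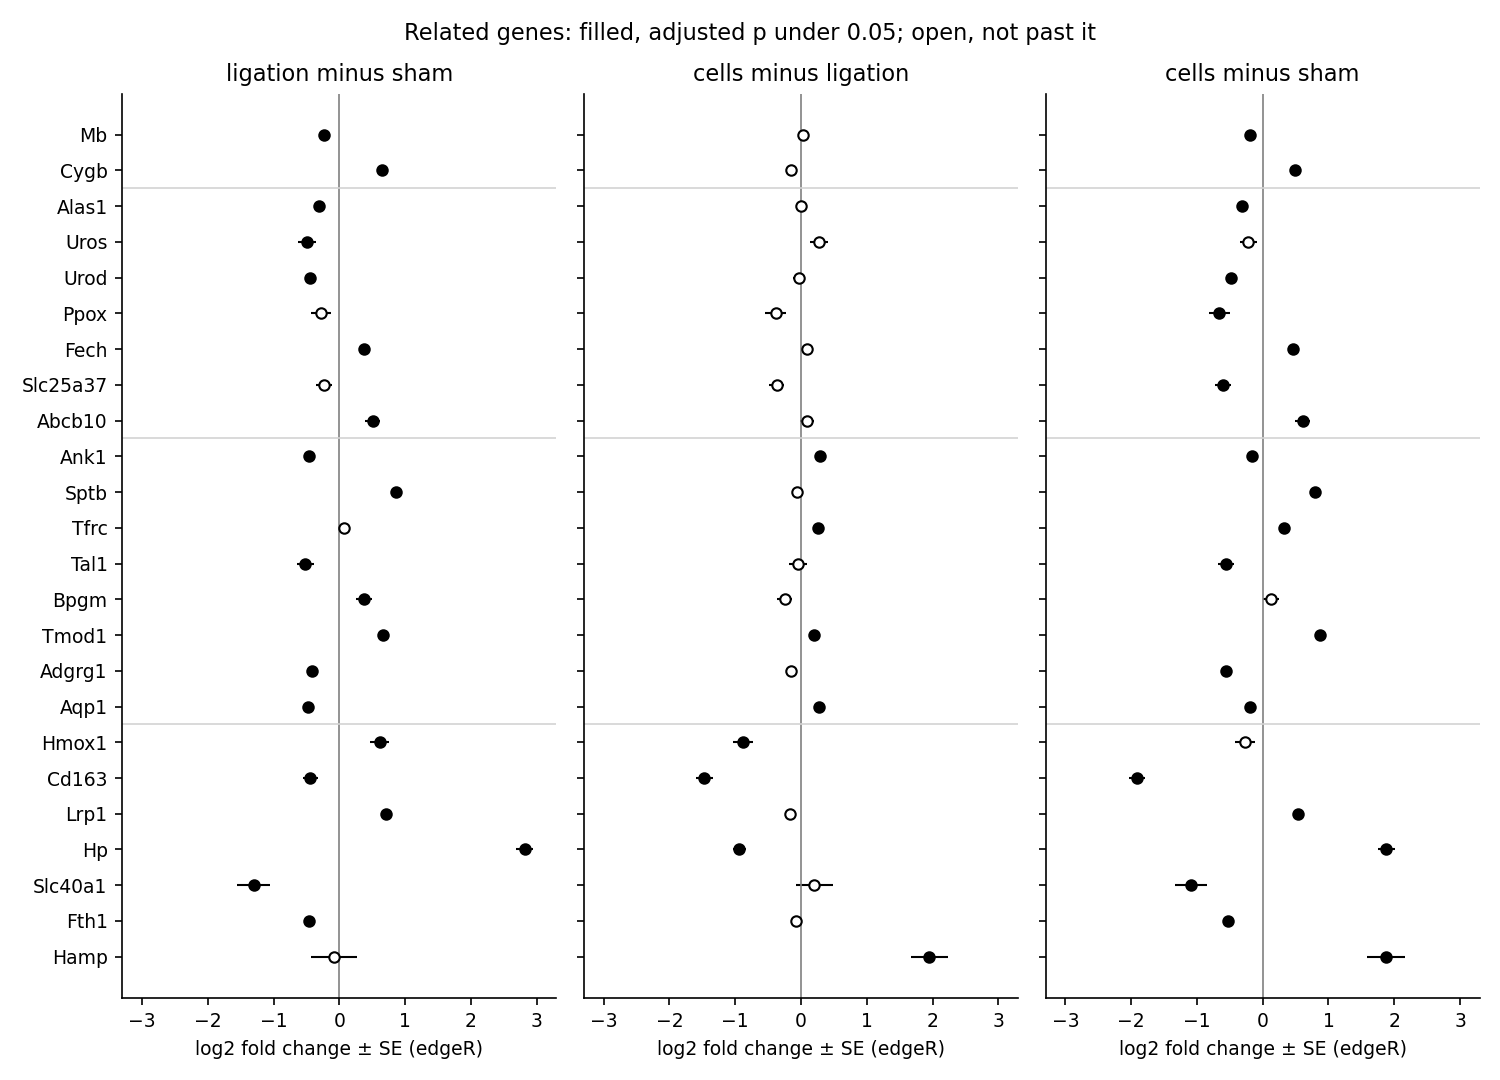
Log2 differences ± SE (horizontal axis) of the named genes of the 4 lists in the 3 comparisons, with filled points for an adjusted p under 0.05 by edgeR. Hp is at 2.82 and Hmox1 at 0.61 after ligation, and in the cell group against ligation they are at -0.94 and -0.88; Slc4a1 is not plotted.

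Likeness to the summed globins was measured as the root mean square difference of log2 CPM over the 9 libraries, each gene centred on its own mean, among 13702 genes. The members Hba-a1 and Hbb-bs, which make up most of the sum, were at 0.0426 and 0.0528, with Hbb-bt at 0.232 and Alas2 at 0.249. The 5 closest genes outside the members were Irf8 (0.0763), C5ar1 (0.0825), Cyth4 (0.0924), Tyrobp (0.130) and C1qa (0.130). Irf8 stood at 13.0 CPM in sham, 22.5 after ligation and 10.1 in the cell group, and C1qa at 147, 219 and 92.6. These 5 were thus nearer to the globin sum than Hbb-bt and Alas2 were. The leukocyte markers Laptm5 and Ptprc ranked 8 and 14, and Slc4a1 ranked 13102. Slc4a1 had only 1 to 26 counts per library, so counting noise enters its distance. Nothing is read from its rank.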

How the data were processed

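Total RNA of the heart was extracted with TRIzol and made into NEBNext Ultra libraries, per the labels' protocols, and the genome build was mm10, per the submitters' processing notes. The deposited files hold raw read counts per Ensembl gene from the authors; the aligner, the counter, its strand setting and the read length are not given in the sources used here. The reference is of another mouse strain than NOD-SCID. Lines that name no gene were left out: ambiguous reads were 8.09 to 8.72% and reads without a feature 4.14 to 4.91%. Symbols came from GENCODE M21 (53274 of 53465 identifiers).

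Counts were scaled by TMM and tested with edgeR 4.0.16 (R 4.3.3; filterByExpr, quasi-likelihood test, 9 libraries in 1 fit, 6 residual degrees of freedom, Benjamini-Hochberg over 13825 genes, threshold 0.05). The members and lists were chosen with earlier results of these data known. A member's difference is the log2 ratio of group mean CPM, with an SE by the delta method. Named genes were a fixed set plus, per list and comparison, the 2 largest passing changes in each direction with at least 1 CPM, and the 5 genes most like the summed globins; some of these are not reported here. On counts simulated for ligation against sham, edgeR recovered 164 of 200 genes changed by 1 on the log2 scale and called 12 of the unchanged among 13825. Alternatives were other scalings, no filter, DESeq2 1.42.0, pairwise fits, a replicate block and each library left out.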

Additional observations from a re-analysis of the deposited data

How the results depend on the processing

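Same-numbered libraries did not deviate together more than others (r -0.121 to 0.133 over 9 pairs, 1 above 0.1). Differently numbered pairs ran from -0.225 to 0.192. With 3 libraries per group this check cannot exclude a batch shared by number. With the replicate block, 40, 10 and 40 genes of the 4 lists passed (39, 12 and 40 without it), in the order ligation against sham, cell group against ligation and cell group against sham, and the globin sum differed by 0.78, -1.20 and -0.42. Leaving out each library moved the globin sum over 0.74 to 0.80, -1.23 to -1.18 and -0.45 to -0.41, and the counts over 35 to 37, 8 to 11 and 36 to 38.

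With library totals alone the globin sum differed by 0.97 and -0.27 from sham, 1 of the other globins passed in each comparison (2, 0 and 2 before) and 1 heme synthesis gene between the cell group and ligation (0 before). That count was also 1 with no filter and with libraries of a shared header stem merged (7 libraries, an alternative chosen after seeing the data), and 0 to 1 when a library was left out. With stems merged the globin sum differed by 0.74, -1.19 and -0.45. The red cell count in that comparison ran from 3 to 5. Reversed in sign were Alas2 between the cell group and sham (0.14 with library totals alone, -0.12 to 0.16 with a library left out), Hamp after ligation (0.11 with library totals alone, -0.38 to 0.13 with a library left out) and Alas1 between the cell group and ligation (0.00214 with stems merged, -0.025 to 0.0166 with a library left out). With a library left out, the difference between the cell group and ligation reached -0.081 to 0.024 for Urod, -0.131 to 0.0258 for Sptb, -0.0967 to 0.0415 for Tal1 and -0.0321 to 0.435 for Slc40a1, and that between the cell group and sham -0.64 to 0.22 for Slc4a1, whose fitted folds rest on few counts. None of the tested ones passed the threshold before, and the cause was not tested. Hba-a2 rests on 3 counts or fewer in each ligated library.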

Other observations

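Counting genes with at least 20 counts in every sham library and at most 3 in each of the 6 ligated libraries gave 5 of 11424 genes, a rule chosen after the values of Hba-a2 were seen. Besides Hba-a2 these were Cyp1a1 (25, 26 and 41 counts in sham, 0 in all ligated libraries), Trim12a (48, 58 and 45, and 0 in all ligated libraries), E330017L17Rik (33, 42 and 22, at most 1 elsewhere) and Rpl21-ps8 (26, 28 and 22, at most 3 elsewhere). The reverse rule gave 3 of 11238 genes, among them Vat1l and Lgals7. Vat1l had 1, 1 and 3 counts in sham against 24, 28 and 57 after ligation and 22, 24 and 33 in the cell group. Lgals7, a galectin, had 2, 1 and 1 in sham against 32 to 53 in the ligated libraries.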
